A study of Mus musculus with 2 samples.

Results

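Effector regulatory T cells, the Foxp3-expressing T cells that carry transcripts of Klrg1, S100a4 or Maf, were described in the spleens of Prmt5 CKO and control mice. Cells were chosen one by one from their counts of unique molecular identifiers (UMIs, 1 per captured transcript). A cell needed at least 1 UMI of Foxp3 and of Cd3e, at least 1 UMI of any of Klrg1, S100a4 and Maf, and 0 UMIs of Cd8a, Cd8b1, Cd79a and Mki67. Barcodes with fewer than 500 genes, or with 10% or more of their UMIs from mitochondrial genes, were left out first. The gate held 240 of the 14372 kept cells, 100 of 7660 in the CKO library and 140 of 6712 in the control library. Because these 9 genes chose the cells, their values are descriptions, and they were left out of all counts and rankings of genes.

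The CKO library came from C57BL/6 mice in which a CD4-Cre transgene deletes floxed Prmt5 (PRMT5 fl/fl), and the control library from mice titled control and WT. CD4-Cre is active in all T cells that pass through a Cd4-expressing thymic stage, so the deletion was not directed at regulatory T cells. The genotype field reads CD4-Cre+ PRMT5fl/fl for both samples, so the groups rest on the titles, and the alleles of the control mice are uncertain. CD3+ cells were sorted from the spleen and sequenced with 10x Genomics 3′ V3.1 chemistry, and no age is given in the labels. The design text names 3 mice per group, but each group is 1 library whose cells are not assigned to mice. There is therefore no replicate check and no test between the groups. The intervals are exact, at 95%, and hold counting error alone. Genotype and library cannot be told apart.

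Regulatory T cells restrain other lymphocytes and depend on the transcription factor Foxp3. On activation in peripheral tissue they pass from a resting, lymph-node-homing state marked by Ccr7 and Bcl2 to an effector state, which carries more of the inhibitory receptor Ctla4 and the costimulatory receptor Icos and, in a terminal subset, the lectin-like receptor Klrg1. Maf is a transcription factor that promotes Il10, and S100a4 is a calcium-binding protein of migrating and activated cells. Prmt5 places symmetric dimethyl marks on arginines of splicing proteins and histones.

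The gated cells were deeper than most. Their median was 7213 UMIs in the CKO library and 6495 in the control library, against 5398 and 5266 in the other Foxp3+ cells, which are those that pass the same gate with 0 UMIs of Klrg1, S100a4 and Maf (171 CKO and 151 control cells). The summed gated cells held 852922 CKO and 1050730 control UMIs. Of the barcodes, 11 occurred in both libraries and 0 of these were gated. The mice were of both sexes: UMIs of Xist and of Y-linked genes occurred together in 14% of gated CKO and 7.14% of gated control cells, against 3.81% and 2.64% of all kept cells. The highest 6% of UMI totals of each library held 17% and 10.7% of the gated cells. These are signs of doublets, whose part in the results was not tested beyond the values given without such cells.

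Markers outside the rule fitted the label of regulatory T cells, some of them in a minority of cells. Ikzf2, a transcription factor of thymic regulatory T cells, had UMIs in 84% of gated CKO and 85% of gated control cells. Tnfrsf18, the receptor GITR, was seen in 86% of CKO and 80.7% of control cells, Il2ra, the IL-2 receptor alpha chain, in 49% and 50.7%, and Trac in 97% and 96.4%. Each of the 11 listed regulatory T cell markers outside the rule had UMIs in both libraries, but several were seen in few cells. Ikzf4 was seen in 33% of gated CKO and 30% of gated control cells, Nrp1 in 26% and 41.4%, and Lrrc32 in 21% and 25.7%. Gpr83 was seen in 16% and 16.4%, against 35.7% and 29.8% of the other Foxp3+ cells. Cd4 was seen in 53% and 58.6% of gated cells. Tnfrsf18 was also seen in 47.1% and 37.0% of Foxp3-negative Cd4+ cells with a gate gene. Ctla4 and Icos, the 2 given effector markers that the gate did not use, were found in 81% and 59% of gated CKO cells and in 92.9% and 67.1% of gated control cells. Among other cell types, the 3 neutrophil markers and the B cell gene Ms4a1 stood at 0 in both libraries. Other markers were present. At least 1 erythroid marker was seen in 8% of gated CKO and 2.86% of gated control cells, an NK marker in 4% and 1.43%, and a myeloid marker in 2% and 3.57%. Pecam1, listed as stromal, was seen in 42% and 39.3%, against 52.6% and 36.4% of the other Foxp3+ cells. The B cell gene Cd79b was seen in 25% of gated CKO and 12.1% of gated control cells. It was seen in 2.92% and 4.64% of the other Foxp3+ cells. Among cells with Cd8b1 and no Cd4 or Foxp3, Cd79b was seen in 14.9% in the CKO library and 12.5% in the control library. Among Foxp3-negative Cd4+ cells without a gate gene it was seen in 1.07% and 1.03%. For comparison, Foxp3 had a UMI in 3.96% of the 2425 kept CKO cells with Cd8b1 (median depth 6893). In the control library it had one in 3.03% of 2603 such cells (7284). Cells with Cd4 were not left out of this set. Whether these UMIs came from free RNA, doublets or the cells themselves was not tested.

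Transcripts of Trdc, the constant segment of the delta receptor chain, were detected in gated cells of the CKO library alone. Trdc had 141 UMIs in 27 of the 100 gated CKO cells and 0 UMIs in the 140 gated control cells, which allows a share of cells with a Trdc UMI of up to 2.14% and sets no limit on cells that express it. CD8 cells were taken here as those with Cd8b1 and no Cd4 or Foxp3. Among them, at median depths of 6870 and 7236 UMIs, a Trdc UMI was found in 9.03% in the CKO library and 2.99% in the control library. Trdc was seen in 4.09% of CKO and 1.99% of control cells among the other Foxp3+ cells, and in 22.8% and 2.39% of the Foxp3-negative Cd4+ cells with a gate gene. Of the 27 cells, 25 also held Trac, 23 held Ikzf2 and 16 held Klrg1. The delta segment lies within the alpha locus, and a Trdc UMI does not show a rearranged gamma-delta receptor. Values without these 27 cells are given where their removal took a gene's interval across 0 or moved its CKO over control ratio more than 1.5-fold.

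Effector regulatory T cells were a smaller share of the CKO library as gated. They made up 1.31% of kept CKO cells (1.06 to 1.59) and 2.09% of kept control cells (1.76 to 2.46), a ratio of 0.626 (0.479 to 0.815). Among the 271 CKO and 291 control cells with Foxp3 and Cd3e and none of the excluded genes they were 36.9% in the CKO library (31.1 to 42.9) and 48.1% in the control library (42.2 to 54.0). Of all kept cells with a Foxp3 UMI, 428 CKO and 417 control cells, they were 23.4% and 33.6%. The exclusions bear on the share. Before them, 164 CKO and 198 control cells held Foxp3, Cd3e and a gate gene, and 36 and 20 of these held Mki67. With Trdc-bearing cells left out, the gate held 1.07% of CKO cells, against 2.17% of control cells, a ratio of 0.495. The other Foxp3+ cells were 2.23% of kept cells in the CKO library and 2.25% in the control library, a ratio of 0.992.

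The size of the deficit depended on depth. When each cell was thinned to 2000 UMIs in 1 random draw, 47 cells of each library passed the gate, with a ratio of 0.878 among kept cells (0.573 to 1.34) and 1.11 among Foxp3+ cells that passed Cd3e and the exclusions, where the direction reversed. Taken over all possible draws, the expected number was 40.7 CKO and 48.8 control cells, or 0.535% and 0.732% of cells deep enough to be thinned. At that depth the expected share of Foxp3+ cells was 31.5% in the CKO library and 35.3% in the control library. Among cells with Y-linked UMIs and no Xist, the gate held 0.949% of CKO cells and 2.09% of control cells. Among cells with Xist and no Y-linked UMI it held 1.65% and 2.26%, and the interval of that ratio, 0.507 to 1.05, includes no change.

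The margins of the gate were thin. Of the gated cells, 36 CKO and 59 control cells held exactly 1 Foxp3 UMI, and 15 and 42 held exactly 1 UMI over Klrg1, S100a4 and Maf. Just outside, 20 CKO and 29 control cells were removed by a single UMI of Cd8a, Cd8b1, Cd79a or Mki67, and 44 and 29 by more than 1. A further 3 CKO and 4 control cells lacked only Cd3e.

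The genes that admitted the cells differed between libraries. Klrg1 was present in 48% of gated CKO cells (37.9 to 58.2) and 17.9% of gated control cells (11.9 to 25.2), and in 43.8% of the 73 CKO cells without Trdc. S100a4 was present in 78% of CKO and 48.6% of control cells, and Maf in 81% and 90%. The 3 genes occurred together in 40% of gated CKO cells, with an interval of 30.3 to 50.3, and in 12.1% of gated control cells, with an interval of 7.24 to 18.7, whereas Maf alone admitted 21% of CKO cells and 47.9% of control cells. The CKO cells were thus richer in the Klrg1 and S100a4 members of the gate and the control cells in members with Maf alone. After thinning the same cells to 2000 UMIs, Klrg1 remained in 28% of CKO and 10.7% of control cells, S100a4 in 71% and 33.6%, and Maf in 41% and 42.9%. Cells with Cd79a and no Cd3e, which are B cells and should lack Klrg1, had it in 0 of 55 CKO and 0 of 51 control cells, which allows shares of up to 5.45% and 5.88%, at median depths of 4009 and 4236. S100a4 was seen in 0 of these CKO cells and 4 of these control cells, and Maf in 3 and 6. Among the CD8 cells taken above, Klrg1 was seen in 3.12% in the CKO library and 0.715% in the control library. For S100a4 the CD8 shares were 9.19% in the CKO library and 5.05% in the control library, while for Maf the CKO share was not higher. The higher CKO shares of Klrg1 and S100a4 were thus not confined to the gated cells.

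**Figure D1:**
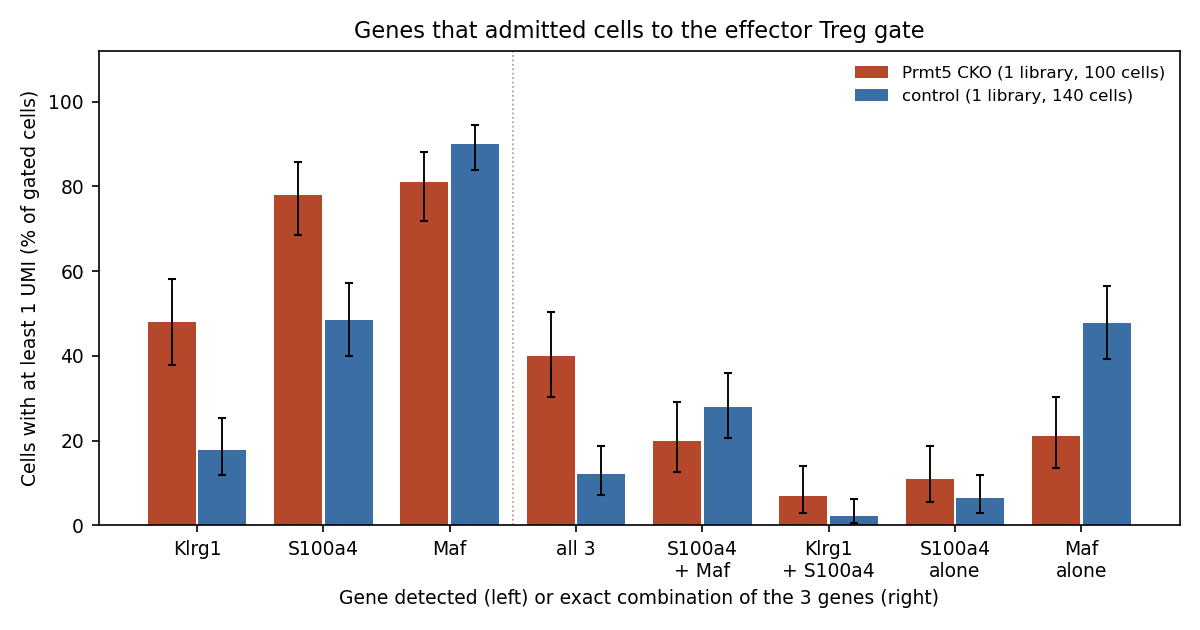
Percentage of gated cells with at least 1 UMI of Klrg1, S100a4 or Maf (left of the dotted line) and with the exact combinations named below the axis (right), for the CKO library (100 cells) and the control library (140 cells); bars are shares and error lines exact 95% binomial intervals. Klrg1 stands at 48% in CKO and 17.9% in control cells, and Maf alone at 21% and 47.9%.

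Levels of the gate genes followed the shares. They are given as CPM, the UMIs of a gene per 1000000 UMIs of the summed cells. Klrg1 had 280 CPM in CKO and 109 CPM in control cells, S100a4 1981 and 671 CPM, and Maf 277 and 446 CPM. Foxp3 itself was close in both, at 304 CPM in CKO cells (268 to 343) and 324 CPM in control cells (290 to 360). In cells with Y-linked UMIs only, Klrg1 was detected in 42.9% of 21 CKO and 17.1% of 35 control cells, and in cells with Xist only in 54.5% of 55 and 20.5% of 73. The share with Maf turned round in the Y-linked cells, at 90.5% in CKO and 85.7% in control cells.

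The targeted gene was sparse in so few cells. Prmt5 had 2 UMIs in gated CKO cells (2.34 CPM) and 9 UMIs in gated control cells (8.57 CPM), a log2 ratio of -1.87 (-5.12 to 0.40). All kept cells held 262 Prmt5 UMIs in the CKO library and 713 in the control library. The tags of the 3′ chemistry need not come from the deleted part of the gene, so this level is only a partial check of the labels.

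Across the transcriptome most genes of the gated cells lay within 2-fold between the libraries. Of the 4490 genes outside the rule with at least 50 UMIs in both sums together and a mean of at least 20 CPM, which are called measured here, 75 (1.67%) were over 2-fold higher in CKO cells and 48 (1.07%) over 2-fold lower. Over both directions that is 2.74%. A ratio above 1 was seen in 51.4% of them, and the median log2 ratio was 0.013. The counts rest on single libraries and carry no test. In the thinned gate, where 500 genes reached the minimum, they were 7 (1.4%) and 2 (0.4%). Among the 1297 genes with at least 200 UMIs they were 14 (1.08%) and 0. Smaller differences were more common. The counting interval lay above 0 in 451 of the 4490 measured genes (10.0%) and below 0 in 385 (8.57%). With at least 200 UMIs it lay above 0 in 250 genes (19.3%) and below 0 in 202 (15.6%).

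Genes of regulatory T cell identity were divided, with more lower than higher in CKO cells. Of the 18 measured identity genes outside the rule, 6 were higher and 12 lower, with a median log2 ratio of -0.10, and 1 was over 2-fold higher and 2 over 2-fold lower. The counting interval lay above 0 in 3 (Itgae, Capg and Tnfrsf18) and below 0 in 6, against 10.0% and 8.57% of all measured genes. Ctla4, the receptor that strips costimulatory ligands from antigen-presenting cells, had 390 CPM in CKO cells and 623 CPM in control cells, a log2 ratio of -0.68 (-0.87 to -0.48). Its median over single cells was 3.17 UMIs per 10000 in CKO and 5.29 in control cells. Ctla4 was also lower in the other Foxp3+ cells, at 253 CPM in CKO and 364 CPM in control cells, so its deficit was not confined to the gate. In Foxp3-negative Cd4+ cells with a gate gene it had 65.8 CPM in CKO and 182 CPM in control cells. The gene, ENSMUSG00000026011, lies on the plus strand of chromosome 1 from 60887000 to 60915832 in mm10.

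The lowest ratios of the list were those of Nt5e and Nrp1. Nt5e, the ectoenzyme CD73 that makes adenosine, had 51.6 CPM in CKO and 124 CPM in control cells, a log2 ratio of -1.26. Nrp1, a semaphorin receptor of thymic regulatory T cells, had 50.4 and 117 CPM, and Izumo1r, the folate receptor FR4, 366 and 717 CPM. Cd27, a TNF receptor of less differentiated T cells, had 203 CPM in CKO and 326 CPM in control cells. Izumo1r and Cd27 differed less in the other Foxp3+ cells, with log2 ratios of -0.22 and 0.18, and the ratio in effector cells minus that in other Foxp3+ cells was -0.75 for Izumo1r and -0.87 (-1.22 to -0.51) for Cd27, both with intervals below 0. Nt5e and Nrp1 were lower in both kinds of cell, at log2 ratios of -1.65 and -1.09 in the other Foxp3+ cells. In the Y-linked cells the gated ratio of Nt5e was -0.22 and that of Izumo1r -0.37, both short of the full values. In Foxp3-negative Cd4+ cells with a gate gene Izumo1r had 135 CPM in CKO and 313 CPM in control cells. Its deficit was thus not confined to effector regulatory T cells.

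Ikzf2, at 985 CPM in CKO and 1065 CPM in control cells, Il2ra, at 147 and 155 CPM, and Tnfrsf4, the receptor OX40, at 601 and 544 CPM, had intervals of their ratio that include no change. Itgae, the integrin chain CD103 that binds epithelial E-cadherin, went the other way within the list. It had 84.4 CPM in CKO cells and 31.4 CPM in control cells, a log2 ratio of 1.43 (0.81 to 2.07), and it was detected in 38% of CKO and 12.1% of control cells. Among the other Foxp3+ cells Itgae had 8.48 CPM in CKO and 10.2 CPM in control cells.

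**Figure D2:**
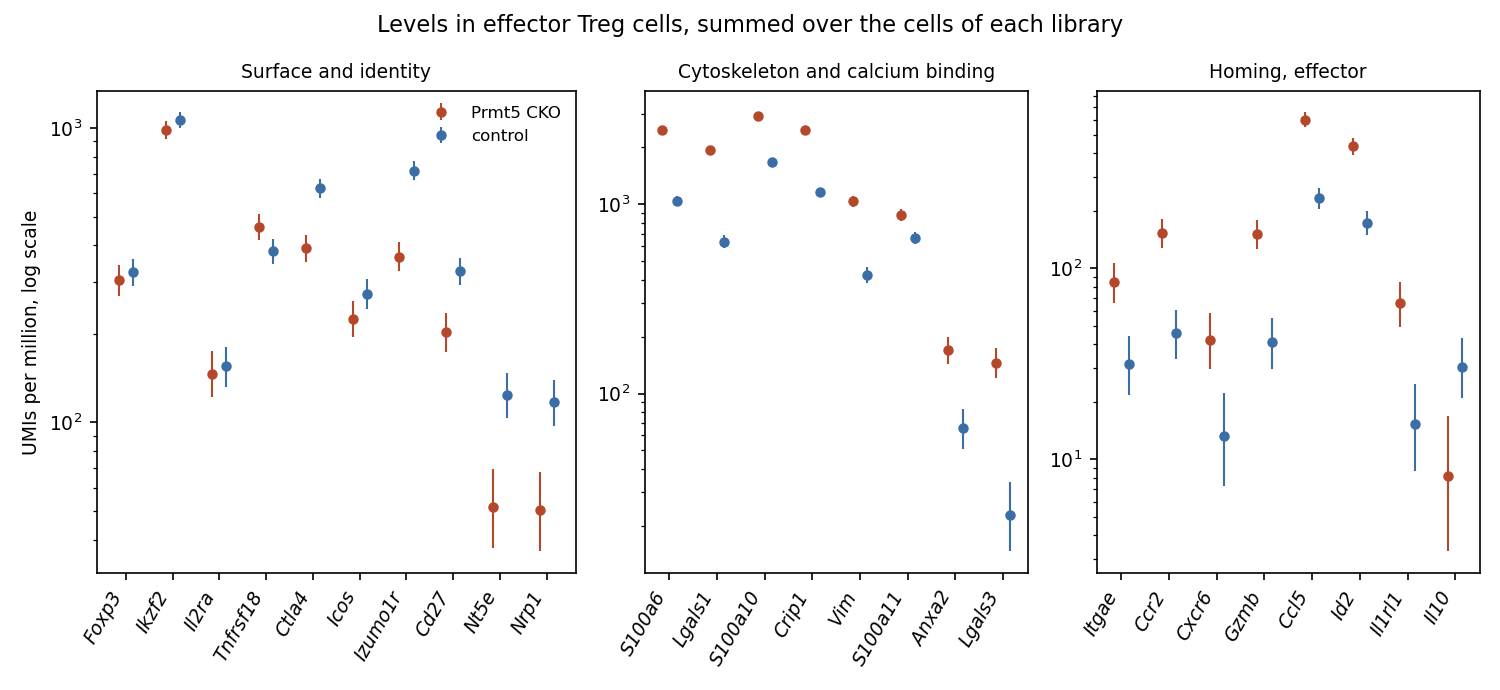
Level in CPM (log scale) of identity and surface genes, of cytoskeleton and calcium-binding genes and of homing and effector genes in the summed gated cells of the CKO library (100 cells) and the control library (140 cells); points are levels and lines exact 95% Poisson intervals. Ctla4, Izumo1r, Nt5e and Nrp1 lie lower in CKO cells, and all 8 genes of the middle panel lie higher.

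The list with the highest median was that of the cytoskeleton and of calcium binding. All 18 measured members outside the rule were higher in CKO than in control effector cells, 6 of them over 2-fold, against 1.67% of all measured genes, and the median log2 ratio was 0.73, against 0.013 over all measured genes. In 16 of the 18 the counting interval lay above 0, as in 10.0% of all measured genes and 19.3% of those with at least 200 UMIs. The median of the list in the other Foxp3+ cells was 0.19 over 15 measured members. The list holds relatives of S100a4, which the gate used and which was itself higher in CKO cells, so the choice of cells bears on these values. The lists were also chosen with earlier results of these data known, so the counts describe the list and are no test.

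S100a6 (ENSMUSG00000001025, plus strand of chromosome 3, 90612882 to 90624181 in mm10), a calcium-binding relative of S100a4 at chromosome 3, 90603771 to 90606045, had 2457 CPM in CKO cells (2353 to 2565) and 1047 CPM in control cells (986 to 1111), and was seen in 73 of 100 and 77 of 140 cells. Its median over single cells was 13.2 UMIs per 10000 in CKO and 1.88 in control cells. The other Foxp3+ cells held almost none, at 18.8 CPM of S100a6 in CKO and 28.3 CPM in control cells. Lgals1 (ENSMUSG00000068220, plus strand of chromosome 15, 78926725 to 78930465), the secreted lectin galectin-1, had 1940 CPM in CKO and 635 CPM in control cells, a log2 ratio of 1.61 (1.48 to 1.74). Galectin-1 was also higher in the other Foxp3+ cells, at 345 CPM in CKO and 186 CPM in control cells.

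Vim, the intermediate filament protein vimentin, had 1039 CPM in CKO and 424 CPM in control cells, a log2 ratio of 1.29 (1.13 to 1.46). In the other Foxp3+ cells it was at 367 and 340 CPM, so that the ratio in effector cells exceeded it by 1.19 (0.91 to 1.46). Anxa2, a membrane-binding annexin, had 169 CPM in CKO cells and 65.7 CPM in control cells, against 33.0 and 48.8 CPM in the other Foxp3+ cells, a difference between the ratios of 1.93 (1.16 to 2.69). Lgals3, which encodes galectin-3, had 145 and 22.8 CPM and was detected in 26 CKO and 12 control cells. Crip1, a LIM-domain protein, and S100a10, the partner of annexin A2, were named after their values were seen. Crip1 had 2472 CPM in CKO and 1160 CPM in control cells, and S100a10 2944 and 1674 CPM.

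Outside the effector gate the direction was not clear for all of these genes. In the other Foxp3+ cells, which by rule hold 0 UMIs of S100a4, the CKO value of Lgals1 lay above the control value. Those of S100a6 and Anxa2 lay below, as given above, but at low levels. S100a6 had UMIs there in just 12 cells of the CKO library (171 in all) and 11 of the control library (151 in all). A reversal beyond counting error is not shown by these values. Over all kept cells, gated cells included, the log2 ratio was 1.14 for S100a6, 1.03 for Lgals1, 0.33 for Vim and 0.57 for Anxa2. In Foxp3-negative Cd4+ cells with at least 1 UMI of Klrg1, S100a4 or Maf (259 CKO and 335 control cells, under the same exclusions), it was 0.995 for S100a6, 1.24 for Lgals1, 0.73 for Vim and 0.79 for Anxa2. Without the 27 Trdc cells the gated ratio was 1.14 for S100a6, 1.71 for Lgals1, 1.27 for Vim and 1.47 for Anxa2. In Y-linked cells it was 1.03, 0.87, 1.12 and 2.83 for these genes in turn, and in Xist cells 1.08, 1.51, 1.20 and 0.71.

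Promoter sequence is shown for S100a6, Vim and Anxa2, the named genes of the group whose ratio differed most between effector and other Foxp3+ cells, from the RefSeq promoter table (build GRCm38.p6), so that the start regions of genes that moved together can be compared. The 250 bases before the annotated start are given 5′ to 3′ on the plus strand, which is the gene's strand in each case, at chr3:90612644-90612893 for S100a6, chr2:13574061-13574310 for Vim and chr9:69453433-69453682 for Anxa2. Capitals mark matches, on either strand, to 4 motifs searched by their letters. The AP-1 motif was spelled TGANTCA, as bound by Fos and Jun proteins. For the GC box, which Sp1 binds, the letters were GGGCGG in this search. The cyclic AMP response element (CRE) was searched as TGACGTCA and its reverse, which is the same. The TATA motif of core promoters was searched as TATAAA and its reverse complement.
S100a6: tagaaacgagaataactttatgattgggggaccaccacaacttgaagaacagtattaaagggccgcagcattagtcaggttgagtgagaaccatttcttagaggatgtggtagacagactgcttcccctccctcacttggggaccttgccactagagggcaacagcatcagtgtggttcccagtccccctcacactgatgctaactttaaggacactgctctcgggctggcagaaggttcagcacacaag
Vim: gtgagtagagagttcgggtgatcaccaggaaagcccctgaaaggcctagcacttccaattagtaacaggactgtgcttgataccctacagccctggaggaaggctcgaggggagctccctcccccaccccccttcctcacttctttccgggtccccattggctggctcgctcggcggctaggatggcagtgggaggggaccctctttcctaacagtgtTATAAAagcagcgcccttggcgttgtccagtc
Anxa2: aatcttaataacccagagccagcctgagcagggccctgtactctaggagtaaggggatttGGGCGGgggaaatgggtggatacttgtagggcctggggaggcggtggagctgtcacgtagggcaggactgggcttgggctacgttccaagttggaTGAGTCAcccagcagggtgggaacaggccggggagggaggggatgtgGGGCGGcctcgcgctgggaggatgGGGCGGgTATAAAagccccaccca

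The 3 windows shared little. Vim held a TATA match from 32 to 27 bases before its start, and Anxa2 held an AP-1 match from 95 to 89 bases before its start, 3 GC boxes and a TATA match, with no overlap between matches. None of the 4 motifs was in the S100a6 window. The GC content was 50% for S100a6, 58.4% for Vim and 62.4% for Anxa2. Over 32841 promoter windows of the same length, AP-1 letters occurred in 6.75%, the GC box in 32.7%, the CRE in 1.55% and the TATA letters in 12.4%. Of the 20 listed cytoskeleton and calcium-binding genes 19 matched the table, and 2 held AP-1 letters, 9 a GC box, 0 a CRE and 5 the TATA letters. A match is a description of letters and not evidence of binding.

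The Klrg1 cells and the cells without Klrg1 were compared within the gate, since the libraries differ in this mixture. Cells without Klrg1 had to carry S100a4 or Maf to be gated, so the rule sets both sides of the split. The 48 CKO and 25 control cells with Klrg1 had S100a6 at 3562 CPM in CKO and 2422 CPM in control cells, and the 52 CKO and 115 control cells without it at 1350 and 746 CPM. Lgals1 was at 2728 CPM in CKO and 1224 CPM in control cells with Klrg1, and at 1150 and 506 CPM without it. For both genes the CKO value lay above the control value on each side, and the intervals of the libraries did not overlap. The split does not make the cells alike in the gate gene S100a4. In cells without Klrg1 it had 1207 CPM in CKO and 478 CPM in control cells. Vim followed the same order, at 1407 and 631 CPM with Klrg1 and 669 and 378 CPM without it. In cells without Klrg1 the log2 ratio of CKO over control was 0.86 for S100a6, 1.19 for Lgals1 and 0.82 for Vim, each with an interval above 0 and each below the ratio of all gated cells.

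Ctla4 and Icos had lower levels in CKO cells on both sides of that split, with intervals that overlap between the libraries only for Icos among the Klrg1 cells. Ctla4 stood at 489 CPM in CKO and 731 CPM in control cells with Klrg1, and at 291 and 600 CPM in those without. Icos stood at 302 and 429 CPM with Klrg1, and at 148 and 239 CPM without. Cells with Klrg1 held more Icos than cells without it in either library. Over all gated cells the log2 ratio of Icos was -0.28, and without the Trdc cells it was -0.22 (-0.51 to 0.07), an interval that includes no change. In Foxp3-negative Cd4+ cells with a gate gene Icos had 90.1 CPM in CKO and 166 CPM in control cells.

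Ccr2 and Gzmb, named by the rule, differed between the libraries mainly in cells without Klrg1. Ccr2, the receptor for the chemokine Ccl2, had 204 CPM in CKO and 191 CPM in control cells with Klrg1, but 103 and 13.9 CPM in cells without Klrg1. Gzmb, a granzyme that regulatory T cells can use against target cells, stood at 126 and 191 CPM with Klrg1 and at 176 and 8.12 CPM without. In both genes the libraries overlapped among Klrg1 cells and stood apart among the rest. Il1rl1, the IL-33 receptor ST2 of tissue regulatory T cells, was mostly a gene of Klrg1 cells, at 117 CPM in CKO and 68.9 CPM in control cells with Klrg1 and at 14.1 and 3.48 CPM without. Cxcr6, a chemokine receptor, stood at 18.7 and 26.5 CPM with Klrg1 and at 65.7 and 10.4 CPM without, and Cxcr4 at 67.9 and 122 CPM with Klrg1 and at 79.8 and 142 CPM without.

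**Figure D3:**
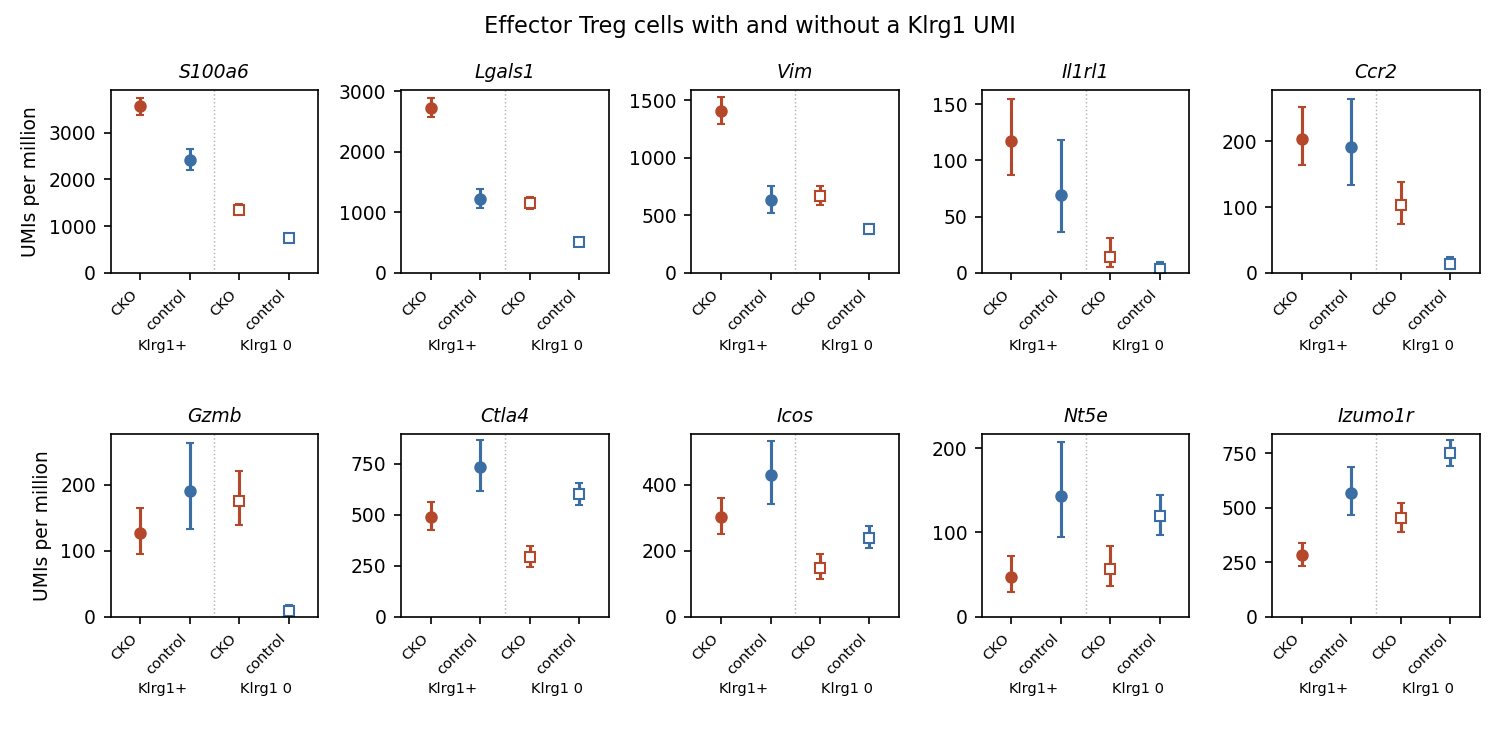
Level in CPM of 10 genes in gated cells with a Klrg1 UMI (filled circles, 48 CKO and 25 control cells) and without one (open squares, 52 CKO and 115 control cells); lines are exact 95% Poisson intervals, and each panel has its own axis from 0. S100a6, Lgals1 and Vim lie higher in CKO cells on both sides of the dotted line, and Ctla4 lies lower, at 489 against 731 and at 291 against 600.

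Of 2299 genes measured in the split, 20 (0.87%) were over 2-fold higher and 16 (0.696%) over 2-fold lower in Klrg1 cells than in cells without Klrg1, in both libraries. Among genes named here after their values were seen, Pglyrp1, an antibacterial peptidoglycan-binding protein, had 436 CPM in CKO cells with Klrg1 and 164 CPM in CKO cells without, and 297 and 101 CPM in control cells. Cd81, a tetraspanin, had 211 and 70.4 CPM in CKO cells, and 345 and 137 CPM in control cells. Lower with Klrg1 were Id3, an inhibitor of E proteins, at 11.7 and 106 CPM in CKO cells and 15.9 and 98.6 CPM in control cells, and Ccr7, at 23.4 and 108 CPM in CKO cells and 10.6 and 115 CPM in control cells. Cells with Klrg1 thus carried less of these genes of resting cells in either library.

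Homing and effector genes differed in part. Of 19 measured homing and chemokine receptor genes, 12 were higher and 7 lower in CKO effector cells, with a median log2 ratio of 0.09. Over 2-fold higher were Ccr2, at 154 CPM in CKO and 45.7 CPM in control cells, Cxcr6, the receptor for Cxcl16, at 42.2 and 13.3 CPM, and Itgae. Cxcr4, the receptor that retains cells in bone marrow, was lower, at 73.9 CPM in CKO and 138 CPM in control cells, as in the other Foxp3+ cells, at 98.9 and 158 CPM.

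Suppressive mediators were divided, and their median turned to -0.52 without the Klrg1 cells. That median leaves out members that no longer reached the minimum, Ebi3 among them. It includes Penk, whose log2 ratio was then -2.09 and whose control UMIs lay mostly in 1 cell. Of 9 measured members 5 were higher and 4 lower, with a median log2 ratio of 0.38. Gzmb, at 151 CPM in CKO and 40.9 CPM in control cells, and Lgals1 were over 2-fold higher, and Nt5e over 2-fold lower, with Ctla4 also lower. Ebi3, a subunit of IL-35, had 46.9 and 25.7 CPM. Il10 was below the minimum for measured genes, with 7 UMIs in 5 CKO cells and 32 UMIs in 14 control cells (8.21 and 30.5 CPM), and 0 UMIs in the other Foxp3+ cells of either library.

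Transcription factors of effector regulatory T cells showed no common direction, with 10 of 15 measured members higher, 5 lower and a median log2 ratio of 0.14. Id2, an inhibitor of E proteins used by effector lymphocytes, had 436 CPM in CKO and 173 CPM in control cells, a log2 ratio of 1.33 (1.07 to 1.60), against 80.1 and 88.5 CPM in the other Foxp3+ cells. Nfil3, a basic leucine zipper factor, had 22.3 and 70.4 CPM. Batf, which is required for tissue regulatory T cells, Gata3 and Rora had 196, 176 and 181 CPM in CKO cells and 179, 153 and 130 CPM in control cells. Id2 and Nfil3 therefore moved in opposite directions while Batf and Gata3 stayed within counting error. Without the Trdc cells the log2 ratio of Gata3 was 0.40 (0.05 to 0.74). Of the 6 measured Th2, ST2 and tissue genes 5 were higher, led by Il1rl1 at 65.7 CPM in CKO and 15.2 CPM in control cells.

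Genes shared with follicular regulatory cells, which act in germinal centres, had the lowest list median. All 6 measured members outside the rule were lower in CKO cells, with a median log2 ratio of -0.43 and none over 2-fold. Sh2d1a, the adaptor SAP, had 196 CPM in CKO and 301 CPM in control cells, Tox 134 and 200 CPM, and Slamf6 162 and 213 CPM. With at least 2 Foxp3 UMIs the median was -0.07, with Slamf6 at -0.04 and Icos at -0.07. In the Y-linked cells the list median was further below 0. There Sh2d1a stood at -1.07, Tox at -0.84 and Slamf6 at -0.94, each with an interval below 0. The Y-linked log2 ratio was 0.15 for Icos (-0.40 to 0.69) and 0.64 for Cd200 (-1.41 to 2.61). These 2 lay in the other direction, with intervals that include no change. In the other Foxp3+ cells the median of 5 measured members was 0.04. The defining genes Cxcr5 and Bcl6 were too low to be measured, at 4.69 and 10.6 CPM in CKO cells and 13.3 and 14.3 CPM in control cells. Costimulatory and inhibitory receptors had a median log2 ratio of -0.28, with 5 of 15 measured members higher and 10 lower, and 0.10 in the Y-linked cells. Cd48, a ligand of CD2 family receptors, stood against the list at 505 CPM in CKO and 279 CPM in control cells.

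Among interferon-response genes 16 of 18 measured members lay above control, with a median log2 ratio of 0.34, and Ifit3, Usp18 and Igtp were over 2-fold higher. Igtp, an interferon-induced GTPase, had 111 CPM in CKO and 54.2 CPM in control cells, and Isg15, a ubiquitin-like modifier, 162 and 83.8 CPM. Without the 27 Trdc cells the log2 ratio was 0.40 for Isg15 (-0.08 to 0.86), an interval that includes no change, against 0.95 with them, and 0.08 for Ifit3 (-1.16 to 1.26), against 2.38. The list median was 0.08 without the 27 Trdc cells and 0.01 with at least 2 Foxp3 UMIs, and it was -0.30 in the thinned gate. Fewer members of the list reached the minimum in the thinned gate. Ifit3 rested on 1 cell, which held 56 of its 72 CKO UMIs.

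TCR signalling genes did not shift together, with 9 of 22 measured members higher, 13 lower and a median log2 ratio of -0.08. Lck, the kinase that starts receptor signalling, had 698 CPM in CKO and 479 CPM in control cells. The other Foxp3+ cells differed more in Lck, at 1049 and 424 CPM, and the ratio in effector cells minus that in the others was -0.76, with an interval below 0. In Foxp3-negative Cd4+ cells with a gate gene Lck had 1041 and 540 CPM. The excess of Lck in the CKO library was thus smaller in effector regulatory cells than in the other Foxp3+ cells.

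The remaining lists had medians between -0.27 and 0.24. Naive and resting genes had a median log2 ratio of -0.04 with 9 of 20 higher and 11 lower, IL-2 receptor and STAT5 genes -0.08 with 5 of 15 higher, immediate early genes 0.02 with 9 of 16 higher, and p53 targets -0.14 with 4 of 10 higher. MHC class I presentation genes had 0.14 with 12 of 15 higher and TNF receptor and ligand genes 0.24 with 10 of 13 higher, both just under 0 without the Klrg1 cells. The medians were 0.16 for glycolysis genes with 9 of 13 higher (0.50 in the Xist cells), 0.08 for BCL2 family genes with 6 of 11 higher, and 0.17 for Sm core and SMN complex genes, the splicing proteins that Prmt5 marks and those that assemble them, with 8 of 10 higher. Of the methyltransferases and Prmt5 partners 3 were measured, and all were lower, with a median of -0.27. Within the naive list Dapl1 stood apart, at 99.7 CPM in CKO and 37.1 CPM in control cells, and Il7r, the IL-7 receptor, had 509 and 316 CPM. Tnfsf11, the ligand RANKL, was lower, at 19.9 and 50.4 CPM.

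**Figure D4:**
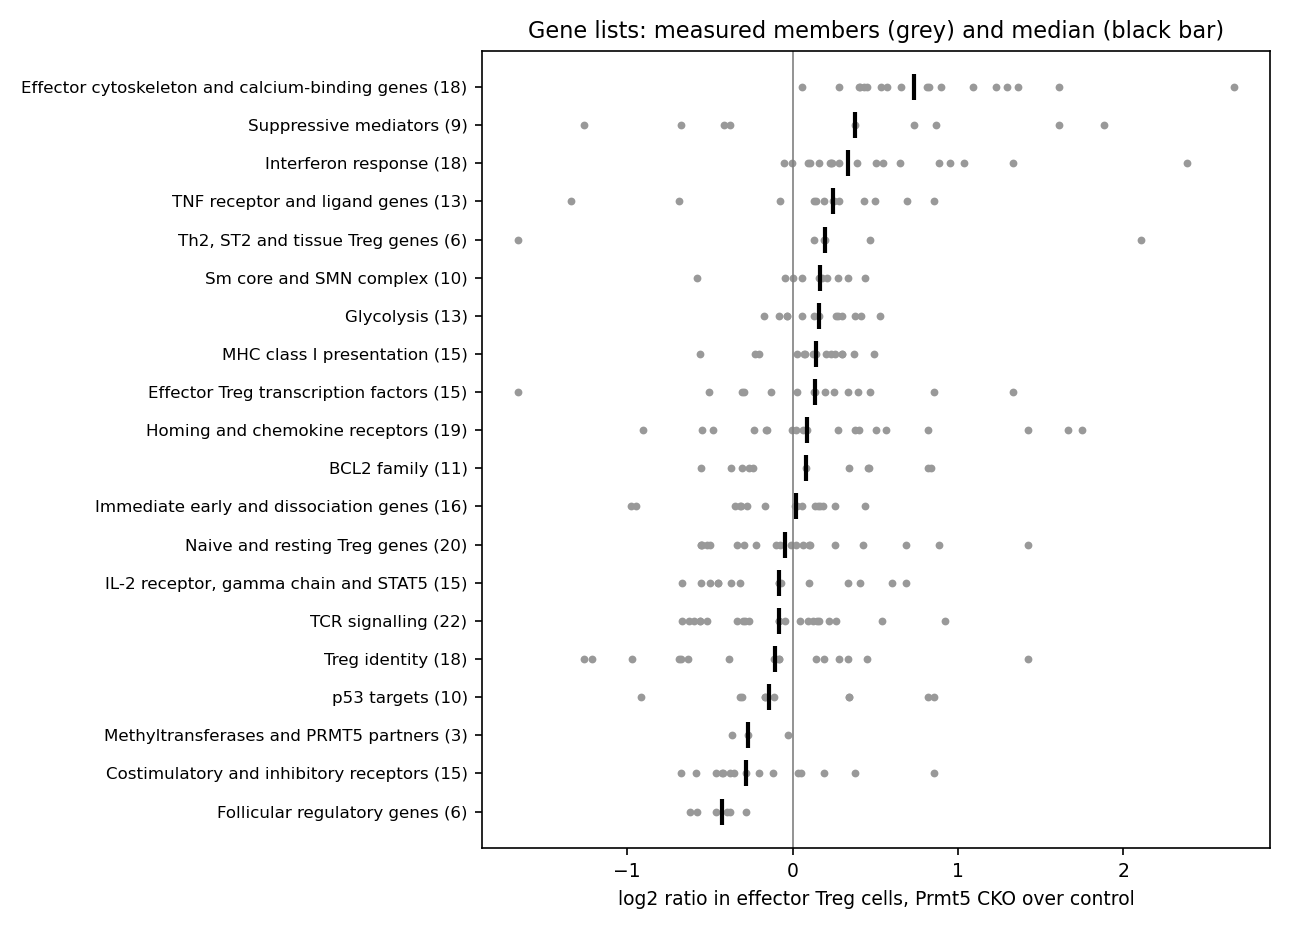
Log2 ratio of CKO over control in gated cells for the measured members of 20 gene lists outside the rule (grey points) and their median (black bar); the number of members stands behind each name. The cytoskeleton and calcium-binding list has the highest median, 0.73, with all 18 members above 0, and the follicular list the lowest, -0.43.

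The genes at the ends of the ranking were often carried by few cells. Gzma, a granzyme of cytotoxic cells, had 200 UMIs in CKO and 2 in control cells, of which 176 lay in 1 CKO cell, and its ratio reversed to -0.74 in the thinned gate. Plac8, a small cysteine-rich protein, had 79 UMIs in 15 CKO cells and 4 UMIs in 4 control cells (92.6 and 3.81 CPM), and was likewise higher in the other Foxp3+ cells, at 83.8 and 7.94 CPM. Birc5, an inhibitor of apoptosis of dividing cells, had 45 UMIs in 8 CKO cells and 5 UMIs in 2 control cells, although the gate leaves out cells with Mki67. Of the 151 Cxcl10 UMIs in CKO cells 81 lay in 1 cell, against 27 in all control cells, and Ifitm3, an antiviral membrane protein, had 61 UMIs in 14 CKO and 8 in 7 control cells. Without the Trdc cells the log2 ratio was 1.44 for Cxcl10, against 2.78 with them, and 2.51 for Ifitm3, against 3.23. Ctla2a, a protease inhibitor, was spread over more cells, with 55 UMIs in 26 CKO cells and 13 UMIs in 10 control cells, no more than 5 in 1 cell. Sox4 had 52.8 CPM in CKO and 7.61 CPM in control cells, and Ms4a4c 62.1 and 13.3 CPM, a log2 ratio of 2.22 that was 1.54 without the Trdc cells.

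Among the lowest ratios, Igf1r, the receptor for insulin-like growth factor 1, had 12.9 CPM in CKO cells and 62.8 CPM in control cells, a log2 ratio of -2.28 (-3.35 to -1.35), and was found in 9 CKO and 40 control cells. Igf1r had 64.1 CPM in CKO and 83.9 CPM in control cells among the other Foxp3+ cells, which leaves a difference between the ratios of -1.89 (-2.93 to -0.86). Tbc1d4, a regulator of glucose transporter traffic, had 45.7 and 126.6 CPM, Plk2, a stress-induced kinase, 10.6 and 50.4 CPM, and St6gal1, a sialyltransferase, 14.1 and 53.3 CPM. Igf1r, Tbc1d4 and Plk2 were lower in CKO cells of both Xist and Y-linked kinds and without Klrg1. The Y-linked values rest on very few UMIs. Igf1r and Tbc1d4 each stood at 6.92 CPM in the 21 Y-linked CKO cells. For Plk2 the Y-linked log2 ratio was -1.56 (-4.77 to 0.64), an interval that includes no change. Rgcc had 18.8 CPM in CKO and 61.9 CPM in control cells, Pacsin1 12.9 and 44.7 CPM, Matk 23.4 and 65.7 CPM and Slc29a1 14.1 and 39.0 CPM. Lyz2, a lysozyme of myeloid cells, had 1 UMI in CKO and 57 in control cells, 55 of them in 1 control cell.

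Effector cells were then set against the other Foxp3+ cells of the same library. The split uses Klrg1, S100a4 and Maf, and the deeper cells fall on the effector side, so these values describe the gate and are no test. Of 4065 genes measured in this comparison, 62 (1.53%) were over 2-fold higher in effector cells in both libraries and 11 (0.271%) over 2-fold lower in both. A ratio above 1 in both libraries was seen in 45.5% of genes and a ratio below 1 in both in 22.8%.

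S100a6 led the ranking, with a log2 ratio of effector over other Foxp3+ cells of 7.03 in the CKO library and 5.21 in the control library. S100a11 followed the same order, at 878 CPM in CKO and 662 CPM in control effector cells and 66.9 and 80.5 CPM in the other cells, although its CKO over control ratio turned to -0.39 in the thinned gate. Icos stood at 225 and 273 CPM in effector cells and 30.1 and 54.4 CPM in the others, a log2 ratio of 2.90 in CKO and 2.33 in control cells. Penk, which encodes an opioid precursor, had 136 and 81.8 CPM in effector cells and 11.3 and 9.07 CPM in the others, but 55 of its 86 control UMIs lay in 1 cell. Nkg7, a granule protein, had 210 and 60.9 CPM in effector cells, and Ccl5, a chemokine, 600 and 233 CPM, against 24.5 and 6.80 CPM and 37.7 and 47.6 CPM in the others. Rora, a nuclear receptor of tissue lymphocytes, had 181 and 130 CPM in effector and 11.3 and 27.2 CPM in other cells, and Glrx, a thiol reductase, 263 and 148 CPM against 16.0 and 22.7 CPM. Nav2 and Smco4 completed the 10 highest, at 93.8 and 162 CPM in CKO and 95.2 and 168 CPM in control effector cells.

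Resting genes were lower in effector cells in both libraries. Of 20 measured naive and resting genes, 17 were lower in effector cells in both libraries and 1 higher in both, with medians of -0.87 in CKO and -0.71 in control cells, against 0.10 and 0.13 over all genes. Ccr7 had 65.7 CPM in CKO and 96.1 CPM in control effector cells, and 200 and 237 CPM in the others. Bcl2, which protects resting cells from death, had 123 and 181 CPM in effector cells, and 381 and 446 CPM in the others. Gpr83, a G protein-coupled receptor of regulatory T cells, had 32.8 and 35.2 CPM in effector cells, and 123 and 105 CPM in the others. The lowest ratio in the CKO library was that of Gsta4, with 3 UMIs in CKO and 16 in control effector cells, whose CKO over control interval includes no change without the Trdc cells, as does that of Actn1. Actn1, Ecm1, Nsg2, Slc35d1, St8sia6 and Lta made up the rest of the 10 lowest, with log2 ratios between -1.71 and -1.13 in the CKO library and -2.15 and -1.01 in the control library.

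**Figure D5:**
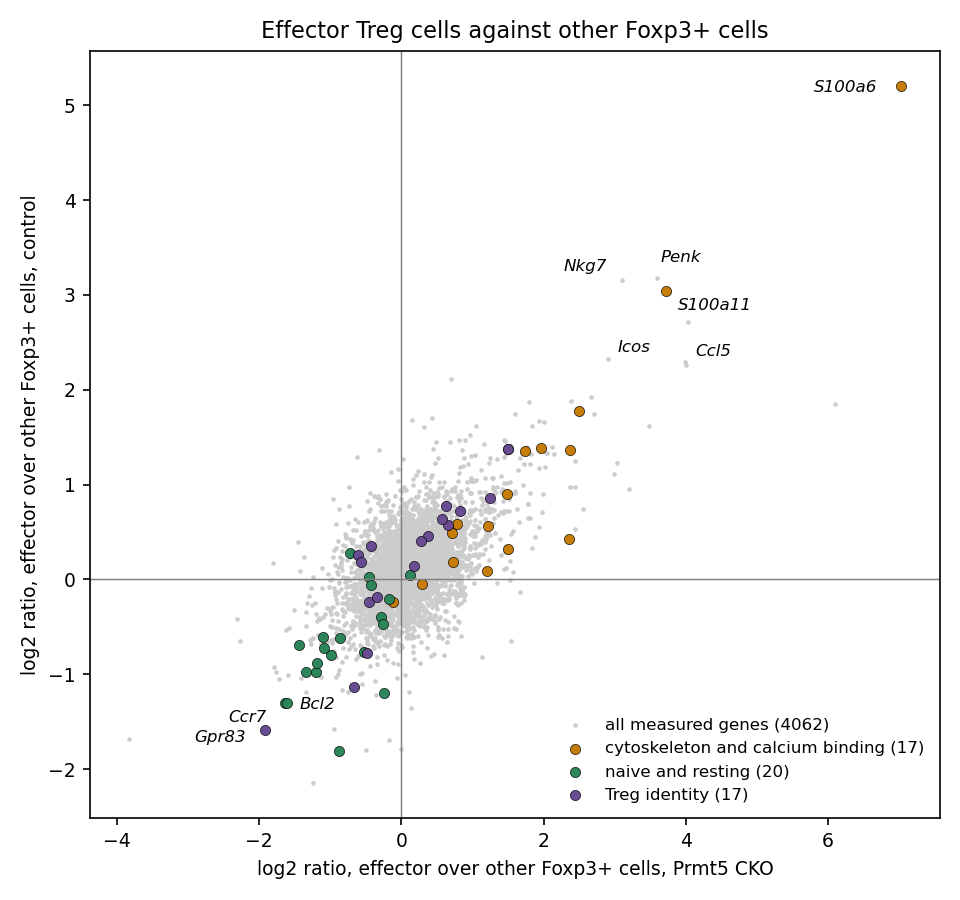
Log2 ratio of effector over other Foxp3+ cells in the CKO library (horizontal) and in the control library (vertical) for 4062 genes with UMIs in all sums (grey), with 3 gene lists in colour. S100a6 lies at 7.03 and 5.21, the other cytoskeleton and calcium-binding genes lie mostly to the right of 0, and the naive and resting genes lie mostly at the lower left.

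Identity genes went both ways between the 2 kinds of Foxp3+ cell. Of 17 measured identity genes, 9 were higher and 5 lower in effector cells in both libraries, with median log2 ratios of 0.17 in CKO and 0.36 in control cells. Capg, an actin-capping protein, was over 2-fold higher in both libraries, at 501 CPM in CKO and 366 CPM in control effector cells and 177 and 142 CPM in the others. Gpr83 was over 2-fold lower, at log2 ratios of effector over other Foxp3+ cells of -1.91 in CKO and -1.58 in control cells, and Ctla4 stood at 0.62 and 0.78 on this scale. Against Foxp3-negative Cd4+ cells with a gate gene, where the gate on Foxp3 makes the split, 14 of 15 measured identity genes were over 2-fold higher in effector cells in both libraries. Over all 4859 genes measured in that comparison 76 (1.56%) were over 2-fold higher in both libraries and 21 (0.432%) over 2-fold lower. Ikzf2 showed this at 985 CPM in CKO and 1065 CPM in control effector cells, against 147 and 115 CPM in the Foxp3-negative cells.

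The CKO over control ratio was also compared between effector and other Foxp3+ cells gene by gene. Of 3994 genes measured in both, the ratio was higher in effector cells by over 1 on the log2 scale in 63 (1.58%) and lower in 81 (2.03%). In the other Foxp3+ cells alone, 44 of 4245 genes (1.04%) were over 2-fold higher in CKO cells and 26 (0.612%) over 2-fold lower. Fam46a had 87.9 CPM in CKO and 20.9 CPM in control effector cells, and 30.1 and 32.9 CPM in the others, a difference of 2.20 (1.20 to 3.19). Itgb1, the integrin beta 1 chain, was alike in effector cells, at 148 and 165 CPM, and stood at 16.0 CPM in CKO and 85.0 CPM in control cells among the others, a difference of 2.25 (1.42 to 3.08).

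Slfn8 had 43.4 CPM in CKO and 21.9 CPM in control effector cells, against 19.8 and 38.6 CPM in the others. In the opposite direction was Igf2r, the receptor that clears insulin-like growth factor 2. It had 44.6 and 73.3 CPM in effector cells and 121.5 and 55.6 CPM in the others, a difference of -1.85 (-2.58 to -1.11). Its CKO over control ratio in the thinned gate was 0.49 on the log2 scale, the other direction, but on few UMIs. Arhgef3, an exchange factor for RhoA, had 25.8 and 71.4 CPM in effector cells and 49.9 and 39.7 CPM in the others. Fndc3a had 28.1 and 36.2 CPM in effector and 43.3 and 14.7 CPM in other cells, and its effector ratio on the log2 scale was -0.96 without the Trdc cells, against -0.36 with them. The receptors for both insulin-like growth factors were thus lower in CKO effector cells and not both so in the other Foxp3+ cells, where Igf2r was higher.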

How the data were processed

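The deposited tables hold counts, whole numbers of UMIs per gene and cell barcode, which the authors made with Cell Ranger 3.1.0 per the submitters' processing notes. CASAVA 1.8, Seurat 2.3.4 and mm10 are named there too, with no role given. Other values in the deposited files are gene names and barcodes. From the counts, cells were gated, UMIs summed per library and given as CPM with exact Poisson intervals, ratios with exact conditional binomial intervals and shares with Clopper-Pearson intervals (Python 3.11.15, numpy 2.4.6, scipy 1.17.1, pandas 2.3.3), all at 95% and for counting error only. A gene was measured with at least 50 UMIs in 2 sums and a mean of 20 CPM. Libraries held 52387620 CKO and 48273424 control UMIs. A share of 0 allows 3 cells of the total. No doublet caller was run. Doublets were addressed by leaving out cells with both Xist and Y-linked UMIs or with the highest 6% of UMIs. Thinning used seed 1. Steps were tested on simulated data.

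Members and the 20 gene lists were chosen with earlier results of these data known. Named were Prmt5, the given markers, the 10 highest and 10 lowest ratios per comparison among measured genes with an interval off 0 (between effector and other Foxp3+ cells, by the smaller ratio of the libraries), 5 each way for the ratio difference, and up to 4 measured members per list with the largest ratios. The 9 gate genes, pseudogenes, predicted genes, receptor segments, and immunoglobulin, ribosomal, mitochondrial and sex-linked genes were not ranked. Other named genes were chosen after their values were seen. Gene positions came from GENCODE vM21, which matched 30843 of 30905 identifiers.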

Additional observations from a re-analysis of the deposited data

How the results depend on the processing

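With the gate applied after thinning each cell to 2000 UMIs, the share ratio was 0.878 among kept cells and reversed to 1.11 among Foxp3+ cells. Klrg1 was then in 31.9% of CKO cells, S100a4 in 68.1% of control cells, and Maf in 57.4% of CKO and 74.5% of control cells. Of 500 genes that then reached the minimum, 7 (1.4%) were over 2-fold higher and 2 (0.4%) lower, against 75 (1.67%) and 48 (1.07%) of 4490 as reported, and the median log2 ratio was 0.51 for cytoskeleton and calcium-binding, 0.0566 for TNF, -0.30 for interferon and -0.015 for MHC class I genes. These medians cover only the list members that still reached the minimum. The log2 ratio reversed for Pacsin1 (0.58), Gzma (-0.74), S100a11 (-0.39), Bcl2 (1.12) and Igf2r (0.49). The reversals come from 1 draw with 47 cells of each library and carry no interval. For genes of low level, such as Pacsin1 and Igf2r, they rest on few UMIs. The thinned sums of effector over other Foxp3+ cells gave 12 higher and 3 lower genes of 611, against 62 (1.53%) and 11 (0.271%) of 4065.

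In Y-linked cells the share ratio was 0.453, and of 1170 genes 31 (2.65%) were higher and 15 (1.28%) lower. Icos reversed to 0.15 and Actn1 to 0.25. List medians were 0.58 (cytoskeleton and calcium-binding), -0.89 (follicular), 0.10 (costimulatory, reversed), 0.29 (MHC class I) and 0.0114 (glycolysis). In Xist cells 43 genes (1.56%) were higher and 28 (1.02%) lower of 2756, Lyz2 reversed to 0.21 and Slc29a1 to 0.0853, and the glycolysis median was 0.50. With at least 2 Foxp3 UMIs, 28 of 3393 genes (0.825%) were lower, Ifit3 reversed to -0.0848, and medians were 0.67 (suppressive), 0.83 (cytoskeleton and calcium-binding), -0.0677 (follicular) and 0.0113 (interferon).

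Without Klrg1 cells 39 of 3312 genes (1.18%) were higher and Penk reversed to -2.09. Medians, over the members that still reached the minimum, were then -0.52 (suppressive, reversed), 0.61 (cytoskeleton and calcium-binding), -0.69 (follicular), -0.0779 (TNF, reversed), -0.0593 (costimulatory), 0.17 (interferon) and -0.0045 (MHC class I, reversed). Without Trdc cells the interferon median was 0.0800. Without the highest 6% of UMIs the medians were 0.60 (suppressive) and 0.29 (MHC class I), and without cells with both Xist and Y-linked UMIs 0.26 (MHC class I).

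With at least 20 UMIs and no CPM minimum, 233 (3.31%) of 7044 genes were higher and 222 (3.15%) lower, and with at least 200 UMIs 14 (1.08%) and 0 of 1297. With a stricter cell filter, 1000 genes and 5% mitochondrial UMIs, 30 of 3389 (0.885%) were lower, and without the cell with the most UMIs of each gene 75 of 4490 (1.67%) were lower. For effector over other Foxp3+ cells the counts were 153 (2.33%) and 24 (0.365%) of 6579 with at least 20 UMIs, 17 (1.47%) and 2 (0.173%) of 1155 with at least 200, and 17 lower (0.418%) when scaled to the median gene ratio. Of 598 values of 48 named genes under the alternatives, 501 stayed within their interval, 86 moved beyond it and 11 reversed. The causes were not tested. The alternatives without Klrg1, Trdc or double-sex cells, without the cell with the most UMIs, the share over all cells with Foxp3, and the expectation over all draws of the thinning were chosen after seeing the data. No paired analysis was possible because each group has 1 library.

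Limits are the single library per group, a gate that turns on 1 UMI in many cells, and 100 and 140 cells, so that genes under about 50 UMIs carry wide intervals.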
